A study of Mus musculus with 20 samples.

Results

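The genes described here are the collagens and the other structural proteins of the fibrillar matrix in mouse tumor RNA-seq. Members were taken by symbol: every listed collagen chain, fibulin and fibrillin, the microfibril-associated proteins Mfap2, Mfap4 and Mfap5, and Fn1, Eln, Postn, Sparc, Thbs1, Thbs2, Tnc, Lox, Loxl1 and Loxl2. This gave 41 genes, 24 of them collagens, of 14633 genes in the table. Of these, 40 passed the filter on low values that left 14385 genes to test. The member not tested was Col9a3, which reached at most 1.55 FPKM (fragments per kilobase of gene length, scaled to sequencing depth). The rule itself uses symbols and no measured value, but it was set with earlier results of these data known.

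The tumors grew for 4 weeks under the skin of C57/BL6 mice from HEPA1-6 cells, a mouse hepatoma line, and poly-A RNA of whole tumors was sequenced. All 4 groups received an antibody. They were anti-CXCL10 with GSK343 (5 libraries), control antibody with GSK343 (5 libraries), anti-CXCL10 alone (5 libraries) and control antibody alone (4 libraries, replicates 1, 2, 3 and 5; replicate 4 was not analysed here). GSK343 inhibits EZH2, the histone methyltransferase of Polycomb repressive complex 2, and CXCL10 is a chemokine that attracts T cells. Nothing in the labels says that samples of a group were taken from different animals. The p-values below therefore describe the scatter among these libraries, which could be partly technical. Age, sex, doses and injection times are not stated in the sources used here, and all tumors derive from a single cell line.

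Many matrix genes are products of fibroblasts and of other cells of the tumor stroma, while basement membrane chains are also made by vessels and epithelial cells. Which cells made each transcript here, tumor cells included, cannot be told from whole tumors. Fibrillar collagens such as type I and type III assemble into tensile fibrils. Type IV collagen forms the sheet of basement membranes, and type VI collagen forms beaded filaments around cells. Elastic fibers consist of an elastin core on a scaffold of fibrillin microfibrils with their associated glycoproteins. Lysyl oxidases cross-link both collagen and elastin. In bulk tumor RNA, fewer cells of a type and less RNA per cell cannot be told apart.

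Promoter windows of 300 bases, from 250 before to 50 after the annotated start, were held by RefSeq (GRCm38.p6) for 27 of the 41 members. The windows of Col1a2 and Col3a1 are printed because these were the fibrillar collagens that were lower with anti-CXCL10 plus GSK343. Those of Col4a1 and Col4a2 are printed because this pair, which is transcribed head to head, did not pass the test in that comparison. Capitals mark the letters CCAAT, or ATTGG where the motif lies on the other strand. Col1a2 (chr6:4505368-4505667, plus strand), Col3a1 (chr1:45311288-45311587, plus strand), Col4a1 (chr8:11312777-11313076, minus strand) and Col4a2 (chr8:11312555-11312854, plus strand) read as follows, each 5′ to 3′ on its own strand.
Col1a2: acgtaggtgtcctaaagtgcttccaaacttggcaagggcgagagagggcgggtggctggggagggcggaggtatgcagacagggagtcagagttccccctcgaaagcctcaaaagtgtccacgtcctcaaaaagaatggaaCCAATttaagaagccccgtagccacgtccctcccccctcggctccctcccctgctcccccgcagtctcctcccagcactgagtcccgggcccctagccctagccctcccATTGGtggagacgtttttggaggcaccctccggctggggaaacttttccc
Col3a1: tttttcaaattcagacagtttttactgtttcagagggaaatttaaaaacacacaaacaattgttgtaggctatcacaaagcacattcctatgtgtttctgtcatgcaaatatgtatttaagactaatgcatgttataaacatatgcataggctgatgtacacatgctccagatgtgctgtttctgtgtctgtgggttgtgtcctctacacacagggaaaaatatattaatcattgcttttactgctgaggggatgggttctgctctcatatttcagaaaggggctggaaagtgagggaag
Col4a1: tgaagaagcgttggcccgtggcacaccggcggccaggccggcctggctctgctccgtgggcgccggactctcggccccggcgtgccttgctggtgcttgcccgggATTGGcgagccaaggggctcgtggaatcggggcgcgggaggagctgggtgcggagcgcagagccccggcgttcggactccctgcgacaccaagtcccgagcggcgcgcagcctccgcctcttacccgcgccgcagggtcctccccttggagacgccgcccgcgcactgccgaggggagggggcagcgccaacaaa
Col4a2: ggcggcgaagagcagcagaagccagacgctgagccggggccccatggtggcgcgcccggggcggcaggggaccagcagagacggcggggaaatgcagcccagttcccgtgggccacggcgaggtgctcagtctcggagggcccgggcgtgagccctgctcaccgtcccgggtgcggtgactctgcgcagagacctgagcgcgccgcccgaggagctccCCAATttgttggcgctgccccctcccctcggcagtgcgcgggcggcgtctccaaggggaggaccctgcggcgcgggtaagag
The annotated start of Col1a2 lay 804 bases inside the gene as the deposited table places it, and the starts of the other 3 matched the table.

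The Col1a2 window held CCAAT or its complement at 2 places and 13 CpG dinucleotides, whereas the Col3a1 window held neither the motif nor any CpG. The Col4a1 window had 37 CpG dinucleotides and the Col4a2 window 33, with 1 CCAAT match each. The annotated starts of Col4a1 and Col4a2 are 21 bases apart, their windows share 78 bases, and the genes themselves overlap by 22 bases on opposite strands. The CCAAT box, the TATA box written TATAAA and the GC box written GGGCGG were searched on both strands of every window. GGGCGG contains a CpG, so those matches also add to the CpG count, and no other overlap between the motifs was considered. The 32851 windows covered 27025 symbols, some with several windows, whether or not the gene was in the deposited table. Each member gave 1 window, the nearest to its start there, so the sets compared below were chosen differently. CCAAT was in 37.4% of all 32851 windows and in 11 of the 27 member windows. TATAAA was in 13.6% of all windows and in 6 member windows, and GGGCGG in 35.7% of all windows and in 15 member windows. The median number of CpG dinucleotides was 7 over all windows and 10 over the members. It was 6 in the 9 members with a window that were lower with anti-CXCL10 plus GSK343, and 12 in the 18 that did not pass there. Both sets ran down to 0, with highest values of 24 in the lower set and 37 in the others, so they overlapped. These matches describe letters, not binding sites.

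Fibronectin, the adhesive glycoprotein on which cells assemble other matrix, was the most abundant member per length, and the order below it ran from matricellular proteins and type I collagen to basement membrane chains. Fn1 averaged 1100 ± 78.4 FPKM with anti-CXCL10 plus GSK343, 871 ± 318 FPKM with control antibody plus GSK343, 1189 ± 150 FPKM with anti-CXCL10 and 1102 ± 99.3 FPKM with control antibody (SD). Over all 19 libraries, Sparc, a secreted collagen-binding glycoprotein, averaged 358 FPKM. It was followed by the type I chains Col1a1 with 147 FPKM and Col1a2 with 146 FPKM, which did not differ beyond their spread. Col3a1, the type III chain, averaged 112 FPKM. Thbs1, a matricellular protein that can activate latent TGF-beta, averaged 88.4 FPKM, and Postn, which promotes collagen cross-linking, 75.3 FPKM. Col18a1, a basement membrane collagen whose end fragment is endostatin, averaged 56.0 FPKM and Col4a1 53.6 FPKM, again within their spread. Col6a1 (43.9 FPKM), the network collagen Col8a1 (36.1 FPKM) and Col4a2 (35.4 FPKM) completed the 12 highest members. The remaining 29 members averaged between 0.726 and 33.7 FPKM.

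**Figure D1:**
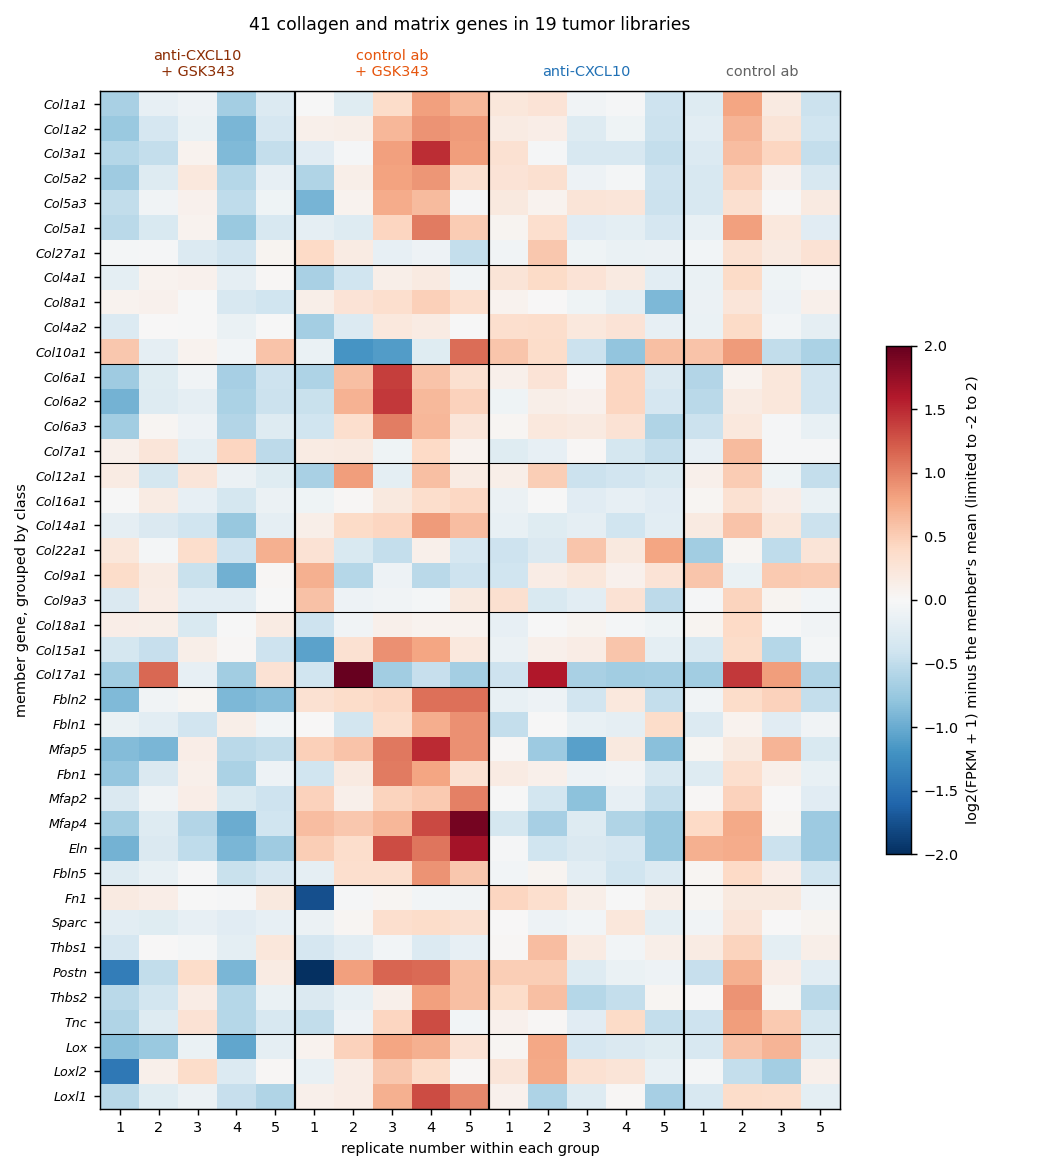
Level of each of the 41 members (rows, grouped by class) in each of the 19 libraries (columns, replicate numbers within groups), as log2(FPKM + 1) minus the member's mean over all libraries. Replicates 3, 4 and 5 of control antibody plus GSK343 are above average in type I and type III collagen and in the elastic fiber genes but below it in Col27a1, the 5 libraries of anti-CXCL10 plus GSK343 are mostly below average there, and replicate 1 of control antibody plus GSK343 is low in Fn1 and Postn.

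Members varied more between libraries of the same group than most genes did. Their median SD within groups was 0.41 on the log2(FPKM + 1) scale, against 0.21 over all genes tested, and 37 of 40 members were above 0.21. The least variable were Sparc (SD 0.15), Col16a1 (0.17), a fibril-associated collagen, and Col18a1 (0.18). The most variable was Col17a1 (SD 1.03), the transmembrane collagen of keratinocyte hemidesmosomes. It was followed by Postn (0.86), Col10a1 (0.69), the collagen of hypertrophic cartilage, Tnc (0.52), a matricellular protein of wounds and tumors, and Col3a1 (0.49). Col17a1 was at 0.97 FPKM or less in all but 5 libraries, and those 5 carried between 1.90 and 6.55 FPKM.

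Among the GSK343-treated tumors, elastic fiber genes, lysyl oxidases and several collagens were lower with anti-CXCL10 than with control antibody. Of the 40 members tested, 15 fell and 0 rose with anti-CXCL10 plus GSK343 relative to control antibody plus GSK343 (limma, Benjamini-Hochberg adjusted p under 0.05). Over all genes tested, 6.64% fell and 3.48% rose. The count dropped to 1, with a median log2 change of -0.23 over the members, when the 3 libraries with the highest muscle marker score, all of control antibody plus GSK343, were omitted. It was 0 lower members with the skeletal muscle, hepatocyte, macrophage or fibroblast marker score as a covariate. The macrophage and fibroblast scores did not overlap between the GSK343 groups compared, so those fits can hardly separate the score from the antibody. The part of the scores in the member changes was not tested. Lower genes among all those tested numbered 955 as reported and 254 without those 3 libraries. With the skeletal muscle, hepatocyte, macrophage and fibroblast scores they numbered 98, 4, 0 and 97, so the losses were not confined to the members. At an unadjusted p under 0.05, 22 members passed and all were lower, against 25.7% of all genes that passed in either direction and 13.7% that were lower. The median log2 change was -0.51 over the members and 0.03 over all genes, and 32 of 40 members had a negative change, against 44.9% of all genes. The anti-CXCL10 plus GSK343 libraries lay wholly below the control antibody plus GSK343 libraries for 10 members, against 4.65% of all genes. They lay wholly above for 0 members and 4.12% of all genes.

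By class, 7 of 8 elastic fiber genes, 2 of 3 lysyl oxidases, 2 of 7 fibrillar collagens, 2 of 4 beaded filament and anchoring collagens, 1 of 5 fibril-associated collagens and 1 of 6 fibronectin and matricellular genes fell. None of the 4 basement membrane and network collagens passed, although 1 of them, Col8a1, was lower at an unadjusted p under 0.05, and 0 of the 3 transmembrane collagens and multiplexins had an unadjusted p under 0.05. Whether the classes differed from each other was not tested. The summed FPKM of the collagens made up 0.0823% to 0.128% of a library with anti-CXCL10 plus GSK343, against 0.105% to 0.226% with control antibody plus GSK343, with overlap.

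**Figure D2:**
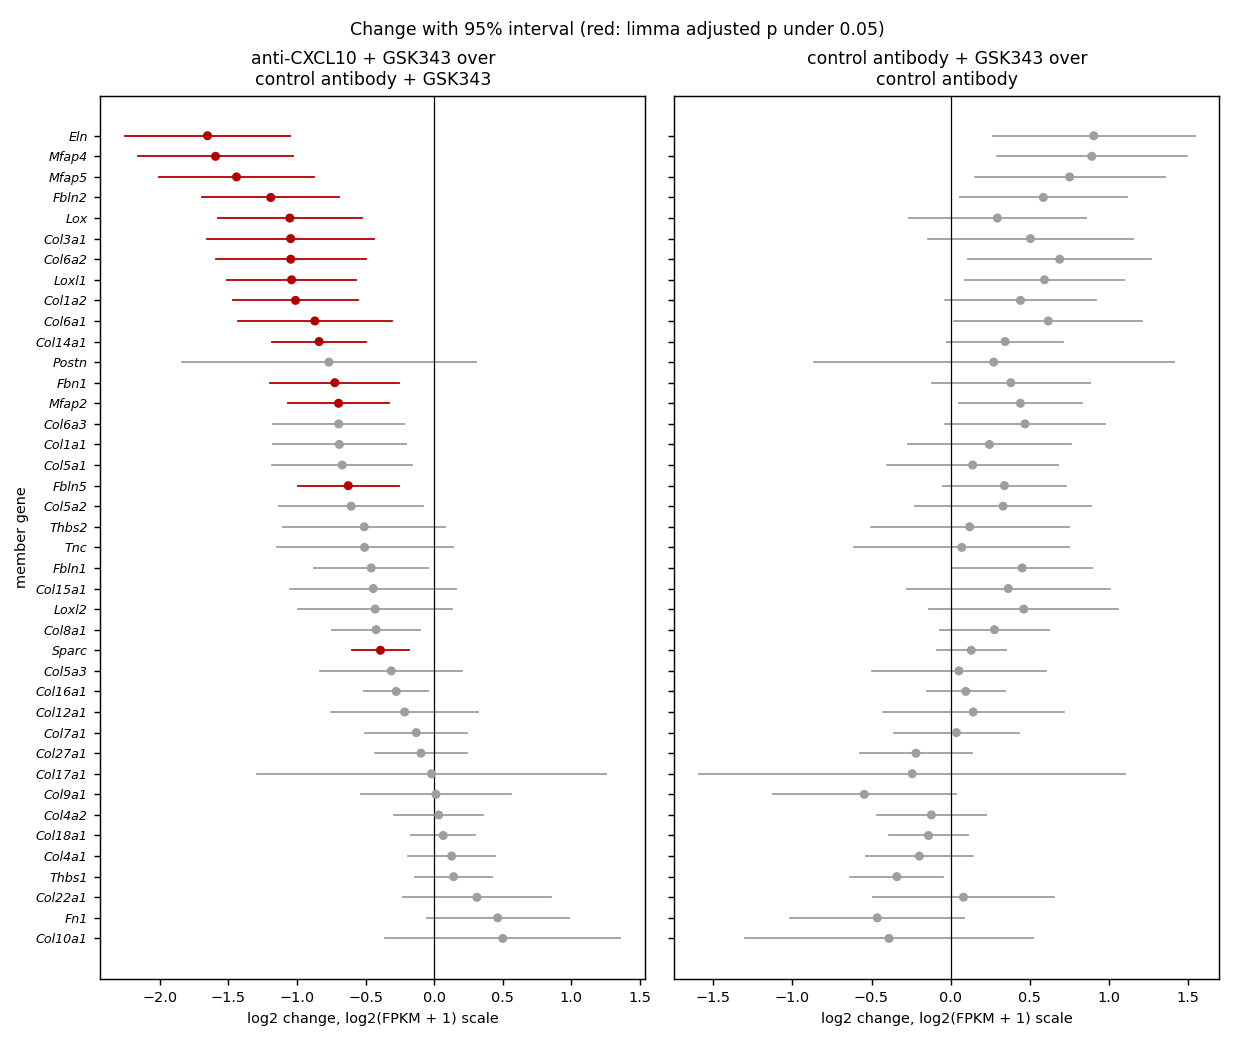
Log2 change of each tested member with its 95% interval, on the log2(FPKM + 1) scale, for anti-CXCL10 plus GSK343 over control antibody plus GSK343 (left) and for control antibody plus GSK343 over control antibody (right); red marks a limma adjusted p under 0.05. On the left 15 members are red, all below 0 and led by Eln at -1.65, and on the right no member is red.

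Elastic fiber genes held the largest changes. Eln, the elastin core protein, was at 0.725, 1.71, 1.33, 0.757 and 1.02 FPKM with anti-CXCL10 plus GSK343, against 3.66, 3.22, 7.24, 6.00 and 9.48 FPKM with control antibody plus GSK343. Every library of anti-CXCL10 plus GSK343 was below every library of control antibody plus GSK343, and the log2 change was -1.65 ± 0.29 (SE; limma adjusted p = 0.00274). Mfap4, a microfibril-associated glycoprotein that binds elastin, was at 1.303, 2.11, 1.48, 0.884 and 1.84 FPKM with anti-CXCL10 plus GSK343, against 4.73, 4.41, 4.93, 8.26 and 13.0 FPKM with control antibody plus GSK343. The groups did not overlap, and replicates 4 and 5 of control antibody plus GSK343 were the highest of all 19 libraries. Mfap4 fell by 1.59 ± 0.27 on the log2 scale (limma adjusted p = 0.00242). It overlaps Mapk7 on the opposite strand, and the strand setting of the counting is unknown.

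Mfap5, a microfibril glycoprotein that binds fibrillin, was at 4.28, 4.08, 9.60, 5.59 and 5.82 FPKM with anti-CXCL10 plus GSK343, against 12.3, 13.3, 18.96, 26.1 and 17.2 FPKM with control antibody plus GSK343. The groups did not overlap, and the change was -1.44 ± 0.27 (limma adjusted p = 0.00418). Fbln2, a fibulin that links elastin, fibronectin and basement membranes, averaged 8.78 ± 3.32 FPKM with anti-CXCL10 plus GSK343 and 21.1 ± 6.37 FPKM with control antibody plus GSK343 (SD, n = 5 each), without overlap (-1.19 ± 0.24, limma adjusted p = 0.00562). Mfap2, another microfibril component, averaged 3.04 ± 0.640 and 5.62 ± 1.55 FPKM (anti-CXCL10 plus GSK343 and control antibody plus GSK343; -0.70 ± 0.18, limma adjusted p = 0.0186). Fbn1, the main fibrillin, averaged 4.74 ± 1.41 FPKM with anti-CXCL10 plus GSK343 and 8.80 ± 3.61 FPKM with control antibody plus GSK343 (-0.72 ± 0.22, limma adjusted p = 0.0475). Fbln5, needed for elastic fiber assembly, was low throughout, at 0.558 ± 0.179 FPKM with anti-CXCL10 plus GSK343 and 1.46 ± 0.648 FPKM with control antibody plus GSK343 (-0.63 ± 0.17, limma adjusted p = 0.0306). It reached 1 FPKM in 6 libraries, all given the control antibody, so it met the filter only through the groups where it was higher. That call, counted above, was also made with no filter on low values. Every gene row of the deposited data already reached 1 FPKM in at least 4 libraries, so that fit does not remove this dependence. The groups overlapped for Mfap2, Fbn1 and Fbln5. Fbln1 was the elastic fiber member that did not pass (-0.46 ± 0.20, limma adjusted p = 0.151).

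Eln, Mfap4, Mfap5 and Fbln2 passed whichever of the 19 libraries was omitted. Mfap2 missed the threshold without replicate 5 of anti-CXCL10 plus GSK343 (limma adjusted p = 0.0527). Fbln5 missed it without replicate 2, 3, 4 or 5 of control antibody plus GSK343 and without replicate 1, 4 or 5 of anti-CXCL10 plus GSK343 (limma adjusted p up to 0.0737). Fbn1 passed in only 2 of the 19 fits, those without replicate 1 of control antibody plus GSK343 or replicate 3 of anti-CXCL10 plus GSK343, and its limma adjusted p reached 0.126 in the others.

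Among the lysyl oxidases, Lox was at 5.005, 5.41, 8.74, 4.22 and 8.45 FPKM with anti-CXCL10 plus GSK343, against 10.3, 13.8, 17.5, 16.5 and 12.1 FPKM with control antibody plus GSK343. Loxl1, which is required for elastic fiber renewal, was at 3.73, 4.85, 5.38, 4.07 and 3.597 FPKM with anti-CXCL10 plus GSK343, against 6.47, 6.67, 10.4, 16.2 and 12.5 FPKM with control antibody plus GSK343. Neither gene overlapped between the groups. The changes were -1.05 ± 0.25 for Lox (limma adjusted p = 0.0142) and -1.04 ± 0.22 for Loxl1 (limma adjusted p = 0.00828), and both held in all 19 fits without 1 library. Loxl2, an oxidase linked to basement membrane collagen, averaged 5.61 ± 2.50 FPKM with anti-CXCL10 plus GSK343 and 7.34 ± 1.57 FPKM with control antibody plus GSK343 (SD, n = 5 each) and did not pass (limma adjusted p = 0.328).

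Type I and type III collagen were lower too, but only part of the fibrillar group passed. Col1a2 was at 82.1, 109, 126, 72.7 and 109 FPKM with anti-CXCL10 plus GSK343, against 147, 149, 218, 256 and 249 FPKM with control antibody plus GSK343. The groups did not overlap, and the log2 change was -1.01 ± 0.22 (limma adjusted p = 0.00778). Its partner chain Col1a1 was at 88.9, 124, 130, 86.9 and 116 FPKM with anti-CXCL10 plus GSK343, against 139, 118, 181, 247 and 221 FPKM with control antibody plus GSK343. Replicate 2 of control antibody plus GSK343 lay among the libraries of the combination, and Col1a1 did not pass (-0.69 ± 0.23, 95% interval -1.17 to -0.21, limma adjusted p = 0.0641). Col1a1 did pass without control antibody replicate 2 (limma adjusted p = 0.0383), and without replicate 1 (limma adjusted p = 0.0464) or replicate 2 (limma adjusted p = 0.0399) of control antibody plus GSK343. Col3a1 was at 68.6, 73.4, 107, 55.1 and 73.4 FPKM with anti-CXCL10 plus GSK343, against 87.5, 101, 181, 287 and 183 FPKM with control antibody plus GSK343. The groups overlapped, since replicate 3 of the combination lay above replicates 1 and 2 of control antibody plus GSK343, and Col3a1 fell by 1.05 ± 0.29 on the log2 scale (limma adjusted p = 0.0296). That call was lost without replicate 3, 4 or 5 of control antibody plus GSK343 and without replicate 1, 2, 4 or 5 of anti-CXCL10 plus GSK343 (limma adjusted p up to 0.0703). The type V chains and Col27a1 had changes between -0.67 and -0.10 and did not pass.

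**Figure D3:**
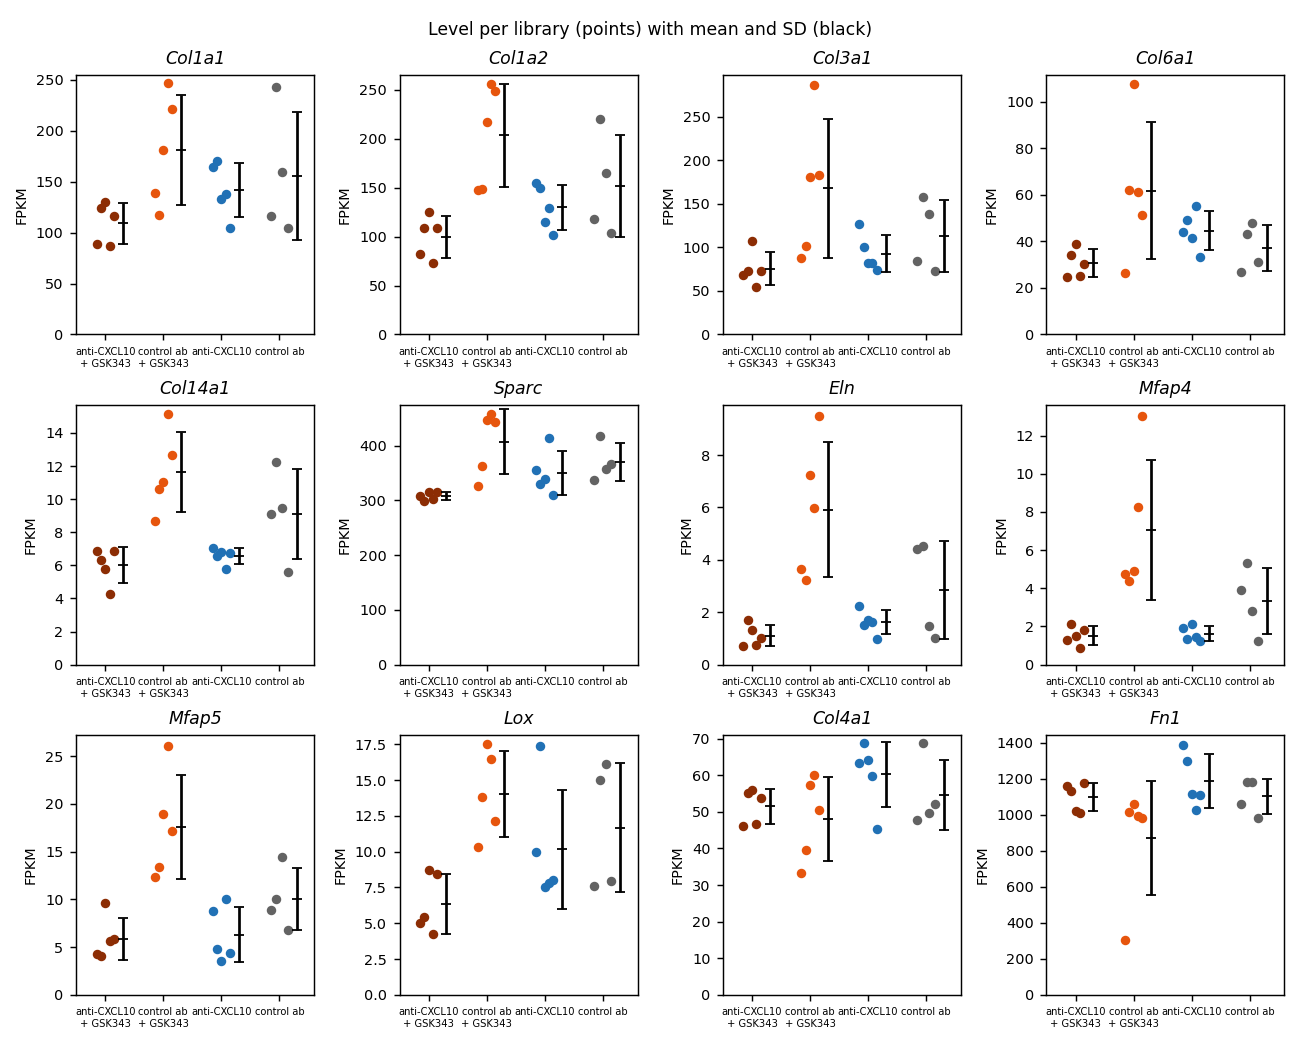
FPKM of 12 members in each library (points) by group, with mean and SD in black. Points of anti-CXCL10 plus GSK343 lie wholly below those of control antibody plus GSK343 for Col1a2, Col14a1, Sparc, Eln, Mfap4, Mfap5 and Lox, while Col4a1 overlaps and Fn1 has 1 library at 304 FPKM.

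Type VI collagen, the pericellular filament collagen, gave 2 calls. Col6a2 was at 15.7, 25.8, 27.2, 19.7 and 22.8 FPKM with anti-CXCL10 plus GSK343, against 22.5, 50.8, 84.6, 49.3 and 43.4 FPKM with control antibody plus GSK343. Col6a1 was at 24.6, 34.3, 38.9, 25.3 and 30.5 FPKM with anti-CXCL10 plus GSK343, against 26.3, 62.3, 108, 61.1 and 51.2 FPKM with control antibody plus GSK343. In both genes replicate 1 of control antibody plus GSK343 lay among the libraries of the combination, and replicate 3 was the highest. Col6a2 changed by -1.05 ± 0.26 (limma adjusted p = 0.0178) and kept its call in all 19 fits without 1 library, but lost it in a fit of these 2 groups alone (limma adjusted p = 0.0557) and when the 3 libraries with the highest muscle marker score were omitted. Col6a1 changed by -0.87 ± 0.27 (limma adjusted p = 0.0458). It kept its call in 7 of these fits and lost it without control antibody replicate 2 or 5, anti-CXCL10 replicate 1 or 3, control antibody plus GSK343 replicate 2, 3, 4 or 5, or anti-CXCL10 plus GSK343 replicate 1, 2, 4 or 5 (limma adjusted p up to 0.114). Col6a3 was just outside the threshold (-0.70 ± 0.23, limma adjusted p = 0.0603), and Col7a1, the anchoring fibril collagen, changed by -0.13 ± 0.18.

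Col14a1, a fibril-associated collagen that regulates fibril growth, was at 6.89, 6.32, 5.76, 4.28 and 6.89 FPKM with anti-CXCL10 plus GSK343, against 8.68, 10.6, 11.0, 15.2 and 12.7 FPKM with control antibody plus GSK343. The groups did not overlap, and the change was -0.84 ± 0.16 (limma adjusted p = 0.00508). Sparc was at 307, 299, 315, 302 and 315 FPKM with anti-CXCL10 plus GSK343, against 326, 364, 446, 458 and 443 FPKM with control antibody plus GSK343. Its libraries did not overlap either, and its change of -0.39 ± 0.10 was the smallest of the 15 calls (limma adjusted p = 0.0186). Without replicate 3 of control antibody plus GSK343 Sparc missed the threshold (limma adjusted p = 0.0527), as it did under quantile normalization (limma adjusted p = 0.0638).

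The basement membrane chains differed by less than the spread between libraries. Col4a1 averaged 51.5 ± 4.78 FPKM with anti-CXCL10 plus GSK343 and 48.1 ± 11.5 FPKM with control antibody plus GSK343 (SD, n = 5 each), a log2 change of 0.13 with a 95% interval of -0.19 to 0.45. Col4a2 averaged 32.9 ± 2.83 FPKM with anti-CXCL10 plus GSK343 and 32.8 ± 7.89 FPKM with control antibody plus GSK343, a change of 0.03 with an interval of -0.29 to 0.36. Col18a1 changed by 0.07 with an interval of -0.17 to 0.30. These intervals do not contain the changes of -0.84 or more negative that Col14a1, Col1a2 or Eln showed. Those changes have errors of their own, and whether the genes differed was not tested. Col8a1, made by vessel wall cells, was lower in every library of the combination than in every control antibody plus GSK343 library but did not pass (-0.42 ± 0.15, limma adjusted p = 0.0886). It passed without anti-CXCL10 replicate 5 (limma adjusted p = 0.0203).

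Fibronectin and periostin depended on a single library. Fn1 was at 1160, 1133, 1021, 1010 and 1175 FPKM with anti-CXCL10 plus GSK343, against 304, 1014, 1062, 992 and 983 FPKM with control antibody plus GSK343. The other 18 libraries of the series lay between 981 and 1389 FPKM. The log2 change of Fn1 was 0.46 ± 0.25 (limma adjusted p = 0.250), and without replicate 1 of control antibody plus GSK343 it was 0.12 ± 0.09 (limma adjusted p = 0.472). Postn was at 24.6, 46.4, 84.4, 34.5 and 73.3 FPKM with anti-CXCL10 plus GSK343, against 14.1, 116, 148, 145 and 99.9 FPKM with control antibody plus GSK343. The same replicate 1 was the lowest library for Postn, and the change was -0.77 ± 0.51 (limma adjusted p = 0.364). Without that library all 5 values of the combination lay below the remaining 4, and Postn changed by -1.38 ± 0.32 (limma adjusted p = 0.00817). Tnc averaged 4.29 ± 1.43 FPKM with anti-CXCL10 plus GSK343 and 7.11 ± 4.45 FPKM with control antibody plus GSK343, with 14.7 FPKM in replicate 4 of control antibody plus GSK343, and did not pass (limma adjusted p = 0.312). Thbs1 changed by 0.14 ± 0.13 (limma adjusted p = 0.543).

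GSK343 given with the control antibody left 0 of 40 members past the threshold in either direction, while 4.36% of all genes rose and 1.11% fell. At an unadjusted p under 0.05, 9 members were higher and 1, Thbs1, was lower, against 10.7% and 8.20% of all genes. The members' median log2 change was 0.27 against -0.03 for all genes, and 31 of 40 had a positive change, against 43.4% of all genes. Mfap4 was at 4.73, 4.41, 4.93, 8.26 and 13.0 FPKM with control antibody plus GSK343, against 3.93, 5.32, 2.82 and 1.25 FPKM with control antibody. The groups overlapped (0.89 ± 0.29, limma adjusted p = 0.0803). Eln, with 4.41 and 4.53 FPKM in 2 control antibody libraries and 1.47 and 1.01 FPKM in the other 2, changed by 0.90 ± 0.30 (limma adjusted p = 0.0969). Mfap5 (0.75 ± 0.29, limma adjusted p = 0.149), Col6a2 (0.69 ± 0.28, limma adjusted p = 0.175) and Loxl1 (0.59 ± 0.24, limma adjusted p = 0.175) followed.

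This count of 0 depended on 2 libraries. Without control antibody replicate 2, Mfap4 (limma adjusted p = 0.0405) and Eln (limma adjusted p = 0.0498) passed. Without replicate 1 of control antibody plus GSK343, Mfap4 (limma adjusted p = 0.0463), Eln (limma adjusted p = 0.0491), Col6a2 (limma adjusted p = 0.0129) and Col6a1 (limma adjusted p = 0.0180) passed. Thbs1 averaged 75.3 ± 5.53 FPKM with control antibody plus GSK343 (SD, n = 5) and 96.5 ± 17.4 FPKM with control antibody (SD, n = 4), a change of -0.34 ± 0.14 (limma adjusted p = 0.187). Several marker lists, described below, moved with this comparison. The macrophage score was 5.45 to 5.83 with control antibody plus GSK343 and 4.32 to 5.23 with control antibody, without overlap, and 10 of 13 macrophage markers rose (limma). Of 16 T cell markers 12 rose, and of 20 hepatocyte and hepatoma markers 4 fell and 0 rose. The skeletal muscle markers had a median log2 change of 2.36, with 1 of 18 past the threshold. The fibroblast score was 2.89 to 3.95 with control antibody plus GSK343 and 2.80 to 3.09 with control antibody, and 1 of 12 fibroblast markers rose. The part of these lists in the member changes was not tested.

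With anti-CXCL10 present, GSK343 moved 0 members and 0 of all genes past the threshold in limma. At an unadjusted p under 0.05, 0 members were higher and 1, Lox, was lower (-0.58 ± 0.25), against 1.67% and 1.24% of all genes. The members' median log2 change was -0.24. Col1a2, for example, was at 82.1, 109, 126, 72.7 and 109 FPKM with anti-CXCL10 plus GSK343, against 155, 150, 115, 129 and 101 FPKM with anti-CXCL10, with overlap (-0.39 ± 0.22, 95% interval -0.84 to 0.06). Averaged over both antibodies, GSK343 also left 0 members past the threshold, while 0.813% of all genes rose and 0.125% fell (limma). At an unadjusted p under 0.05, 2 members, Mfap2 and Mfap4, were higher and 1, Thbs1 (-0.29 ± 0.10, limma adjusted p = 0.184), was lower, against 7.70% and 4.62% of all genes.

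The interaction, which asks whether GSK343 acted differently with each antibody, likewise gave 0 members past the threshold (limma), with 0.0626% of all genes passing, all of them negative. At an unadjusted p under 0.05, 11 members had a negative interaction and 0 a positive one, against 7.83% and 5.11% of all genes. Col6a2 had the smallest p (-1.22 ± 0.38, limma adjusted p = 0.182), followed by Col6a1 (-1.14 ± 0.39, limma adjusted p = 0.209) and Eln (-1.22 ± 0.42, limma adjusted p = 0.211). Without replicate 1 of control antibody plus GSK343, Col6a2 (limma adjusted p = 0.0228) and Col6a1 (limma adjusted p = 0.0237) passed. In the fit of all libraries, no member's response to GSK343 was shown to differ between the antibodies.

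Without GSK343, anti-CXCL10 against control antibody gave 0 member calls in limma, and 0.0139% of all genes passed, all of them lower. At an unadjusted p under 0.05, 4 members were lower and 0 higher, against 4.01% and 2.79% of all genes. These were Mfap2 (-0.43 ± 0.19), Mfap4 (-0.64 ± 0.29), Mfap5 (-0.64 ± 0.29) and Col14a1 (-0.37 ± 0.17), with limma adjusted p between 0.700 and 0.716. All 4 were among the 15 lower members of the comparison with GSK343. Its libraries are separate, but both comparisons came from 1 model with a shared spread. With 15 of 40 members lower there, some overlap would arise at random, and it was not tested. The column names number the anti-CXCL10 libraries S1 to S10 and the control antibody libraries again S1 to S10, so the antibody cannot be told apart from this numbering in either comparison. The labels do not say whether it marks separate sequencing runs.

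Col1a1 to Col1a2, Col4a1 to Col4a2 and Col6a1 to Col6a2 kept close ratios across the libraries, while other chains of one collagen varied more. The ratio of Col1a1 to Col1a2 FPKM had a median of 1.04 over 19 libraries (range 0.792 to 1.19). Within groups the log2 ratio had an SD of 0.09, against 0.39 for log2 FPKM of Col1a1 and 0.37 for log2 FPKM of Col1a2. Col4a1 to Col4a2 had a median ratio of 1.52 (SD of the log2 ratio 0.07) and Col6a1 to Col6a2 one of 1.305 (SD 0.09). The SD of the log2 ratio was 0.19 for Col6a3 to Col6a1 (ratios 0.374 to 0.578) and 0.23 for Col5a1 to Col5a2 (ratios 0.252 to 0.460). The ratio of Col1a1 to Col1a2 lay between 1.04 and 1.19 with anti-CXCL10 plus GSK343 and between 0.792 and 0.965 with control antibody plus GSK343, without overlap. The means were 1.10 ± 0.063 with anti-CXCL10 plus GSK343 and 0.885 ± 0.074 with control antibody plus GSK343 (SD, n = 5 each; exact two-sided permutation p = 0.00794, the smallest that 5 against 5 allows; adjusted p = 0.0952 over 24 such tests). For Col6a1 to Col6a2 the means were 1.39 ± 0.11 with anti-CXCL10 plus GSK343 and 1.22 ± 0.042 with control antibody plus GSK343, with the same exact permutation p and adjusted p. Neither ratio passed the adjusted threshold.

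**Figure D4:**
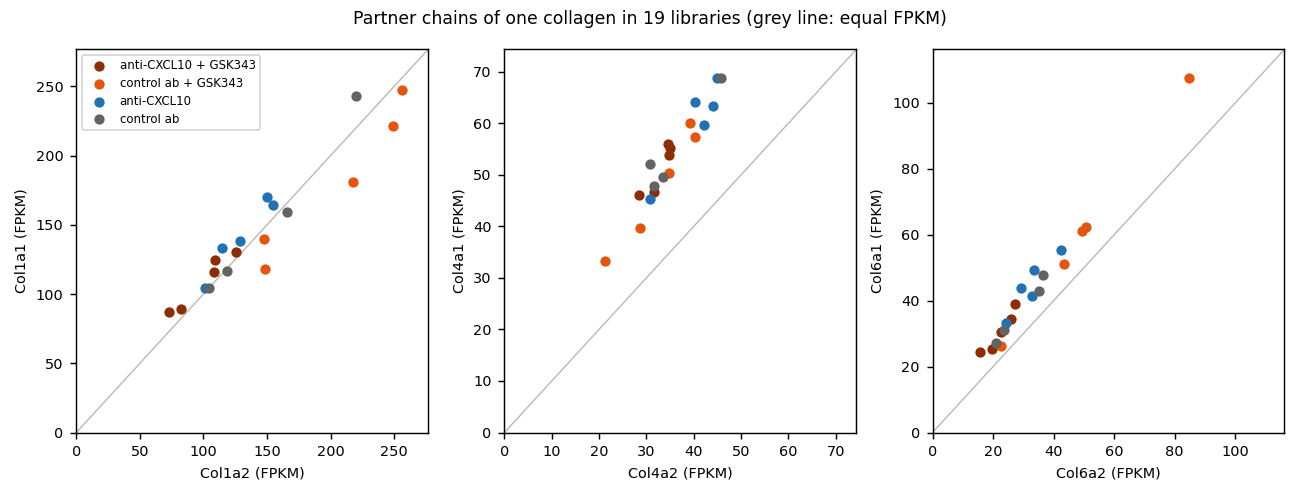
FPKM of partner chains in each of 19 libraries: Col1a1 against Col1a2, Col4a1 against Col4a2 and Col6a1 against Col6a2, with a grey line of equal FPKM. Points follow a straight line in each panel; the Col1a1 to Col1a2 ratio is below 1 in the 5 libraries of control antibody plus GSK343 and above 1 in the 5 of anti-CXCL10 plus GSK343.

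Across the 19 libraries, after subtraction of group means, 8 member pairs were tested. The permutations shuffled these values over all libraries and not within groups, whose spreads differed, so the p-values may be too small. Pearson's r was 0.98 for Col6a1 and Col6a2 (Spearman's rho 0.98), 0.97 for Col1a1 and Col1a2 (rho 0.96) and 0.96 for Col4a1 and Col4a2 (rho 0.91), each with a permutation p of 1e-05, the smallest that 100000 permutations give, and an adjusted p of 1.6e-05 over 8 relations. Leaving out the 2 farthest libraries gave 0.96, 0.97 and 0.93 in that order. Col3a1 and Col5a2, which lie 24614 bases apart, reached 0.89 (rho 0.86; 0.84 without the 2 farthest), and Col5a1 with Col5a2 reached 0.87 (rho 0.88; 0.83 without them), both with the same permutation p. Fn1 and Col1a1 gave 0.35 (rho 0.43, permutation p = 0.137, adjusted 0.137). Fn1 and Postn gave 0.85 (rho 0.68, permutation p = 0.00016, adjusted 0.000213), which dropped to 0.54 without the 2 farthest libraries and so rested in part on them. Col18a1 and Col1a1 gave 0.43 (rho 0.45, permutation p = 0.0640, adjusted 0.0732).

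Over all 780 pairs of tested members the median r was 0.41, from -0.64 to 0.98. Fibrillar collagens had the highest median r within a class (0.80, 21 pairs) and fibril-associated collagens the lowest (-0.04, 10 pairs). Col5a2 had the highest median r with the other members (0.69), and Col9a1, a cartilage-type fibril-associated collagen, the lowest (-0.36), with Col22a1 (-0.15) and Col27a1 (-0.14) also below 0. These are descriptions: members measured in one library share its tissue make-up.

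Other matrix genes were counted from lists chosen with earlier results of these data known. In anti-CXCL10 plus GSK343 against control antibody plus GSK343, 5 of 11 small leucine-rich proteoglycan and hyaluronan genes fell and 0 rose (limma). The shares over all genes were 6.64% lower and 3.48% higher. Ogn, osteoglycin, averaged 0.686 FPKM with anti-CXCL10 plus GSK343 and 7.93 FPKM with control antibody plus GSK343 (-2.15 ± 0.35, limma adjusted p = 0.00224). Its means were 0.762 FPKM with anti-CXCL10 and 1.22 FPKM with control antibody. Ogn may thus have met the filter on low values mainly through control antibody plus GSK343. Lum, the fibril-spacing proteoglycan lumican, averaged 3.37 FPKM with anti-CXCL10 plus GSK343 and 15.4 FPKM with control antibody plus GSK343 (-1.85 ± 0.39, limma adjusted p = 0.00726). Bgn, biglycan, averaged 71.3 FPKM with anti-CXCL10 plus GSK343 and 155 FPKM with control antibody plus GSK343 (-1.05 ± 0.25, limma adjusted p = 0.0138). Vcan, versican, changed by -0.64 ± 0.18 (limma adjusted p = 0.0306), a call lost without replicate 1, 3 or 4 of either GSK343 group (limma adjusted p up to 0.0740).

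Of 26 matrix proteases and inhibitors 5 fell and 0 rose, against 6.64% and 3.48% of all genes. Mmp2, a gelatinase, averaged 7.58 FPKM with anti-CXCL10 plus GSK343 and 23.1 FPKM with control antibody plus GSK343 (-1.35 ± 0.30, limma adjusted p = 0.0103). Plau, the urokinase plasminogen activator (-1.06 ± 0.20, limma adjusted p = 0.00386), Adamts5, an aggrecan protease (-1.01 ± 0.19, limma adjusted p = 0.00437), and Mmp23 (-0.99 ± 0.16, limma adjusted p = 0.00228) fell as well. Adamts5 averaged 0.657 FPKM with anti-CXCL10 plus GSK343 and 0.719 FPKM with anti-CXCL10. It averaged 2.44 FPKM with control antibody plus GSK343 and 1.55 FPKM with control antibody. It may thus have met the filter on low values mainly through the groups where it was higher. Of 24 TGF-beta ligands, receptors and targets 7 fell and 1 rose, against the same shares of all genes. Tgfbi, a secreted TGF-beta target that binds collagen, averaged 34.1 FPKM with anti-CXCL10 plus GSK343 and 61.8 FPKM with control antibody plus GSK343 (-0.84 ± 0.20, limma adjusted p = 0.0149). Pmepa1, a TGF-beta target that dampens the signal (-0.63 ± 0.11, limma adjusted p = 0.00274), and Cyr61, a matricellular protein (-0.92 ± 0.18, limma adjusted p = 0.00485), fell. Ltbp3, a latent TGF-beta binding protein, rose by 0.31 ± 0.08 (limma adjusted p = 0.0200), a call lost without replicate 2 or 3 of control antibody plus GSK343 or replicate 1 of anti-CXCL10 plus GSK343 (limma adjusted p up to 0.0561).

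Of 32 collagen biosynthesis and processing genes 5 fell and 2 rose, against 6.64% and 3.48% of all genes. Serpinh1, the collagen chaperone HSP47, averaged 29.9 FPKM with anti-CXCL10 plus GSK343 and 61.3 FPKM with control antibody plus GSK343 (-0.93 ± 0.25, limma adjusted p = 0.0246). Its call was lost without replicate 3 or 4 of control antibody plus GSK343 or replicate 3 or 5 of anti-CXCL10 plus GSK343 (limma adjusted p up to 0.0692). Plod2, a collagen lysyl hydroxylase, changed by -0.57 ± 0.13 (limma adjusted p = 0.0117). P4hb, the beta subunit of prolyl hydroxylase and a general disulfide isomerase, rose by 0.43 ± 0.08 (limma adjusted p = 0.00506). Mesdc2, a chaperone of lipoprotein receptors, rose by 0.23 ± 0.06 (limma adjusted p = 0.0251). It lost its call without replicate 2 of control antibody plus GSK343 or replicate 1 or 5 of anti-CXCL10 plus GSK343 (limma adjusted p up to 0.0638). Neither gene that rose acts on collagen alone, so the list was wider than its name. Of 17 collagen and fibronectin receptors 1 rose, the syndecan Sdc1 (0.33 ± 0.06, limma adjusted p = 0.00508), and 0 fell, against 3.48% and 6.64% of all genes. Of 13 laminins and other basement membrane proteins 0 passed. At an unadjusted p under 0.05, 0 were higher and 2 lower. Of all genes, 13.7% were lower at that p and 25.7% passed in either direction. Those 2 were Smoc2 (-1.05 ± 0.35, limma adjusted p = 0.0639) and Lama4 (-0.49 ± 0.19, limma adjusted p = 0.107), and both passed without replicate 1 of control antibody plus GSK343 (limma adjusted p = 0.00425 for Smoc2 and 0.00203 for Lama4).

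With GSK343 under the control antibody, Ogn rose by 1.75 ± 0.38 (limma adjusted p = 0.0120), to 7.93 FPKM on average against 1.22 FPKM with control antibody, and held in all 19 fits without 1 library. Plau, Plaur and Cyr61 also rose and P4hb and Sdc1 fell there. All 5 of those calls were lost without control antibody replicate 1 (limma adjusted p between 0.0691 and 0.143), and each was lost without at least 1 further library. No other gene of the 6 pathway lists passed in that comparison.

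Cell type markers moved with the member changes. The fibroblast list held 12 of its 14 genes in the table and no member, but shared Lum and Dcn with the proteoglycan list. Its score, the mean log2(FPKM + 1) of the list, lay between 2.29 and 2.84 with anti-CXCL10 plus GSK343 and between 2.89 and 3.95 with control antibody plus GSK343, without overlap. Dcn, decorin, made up 95.1% of the summed FPKM of this list and averaged 1173 ± 37.3 FPKM with anti-CXCL10 plus GSK343 and 1253 FPKM with control antibody plus GSK343; it was singled out after its values were seen. The summed levels therefore differed less, at 1163 to 1254 FPKM with anti-CXCL10 plus GSK343 and 1262 to 1485 FPKM with control antibody plus GSK343. With the fibroblast score as a covariate, 0 of 40 members were lower and 2, Col4a1 (0.78, limma adjusted p = 0.0294) and Col4a2 (0.69, limma adjusted p = 0.0415), were higher. The median change over the members was then 0.06. Over all genes, 241 passed in that fit.

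Skeletal muscle markers (19 of 22 in the table) stood apart in 3 libraries, replicates 4, 3 and 5 of control antibody plus GSK343, with scores of 6.01, 4.23 and 4.14, while no other library exceeded 3.47. Their summed level was 18.01 to 131 FPKM with anti-CXCL10 plus GSK343 and 59.5 to 2636 FPKM with control antibody plus GSK343. Those 3 libraries were also the highest of their group for Col1a1, Col1a2, Col3a1 and Eln. Without them, 1 of 39 members tested, Mfap4, passed (-1.16 ± 0.29, limma adjusted p = 0.0443), and the median change over the members was -0.23. This fit had 2 control antibody plus GSK343 libraries left. Eln (-1.09 ± 0.34, limma adjusted p = 0.0825), Mfap5 (-1.06 ± 0.35, limma adjusted p = 0.0962) and Lox (-0.86 ± 0.34, limma adjusted p = 0.165) did not pass there, nor did Col1a2 (-0.59 ± 0.26) or Col3a1 (-0.35 ± 0.29). With the muscle score as a covariate, 0 members passed and their median change was -0.35. Over all genes, 478 passed without those 3 libraries and 124 with the muscle score as a covariate.

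Hepatocyte and hepatoma markers, all 20 of which were in the table, had scores of 5.23 to 5.92 with anti-CXCL10 plus GSK343 and 4.62 to 5.24 with control antibody plus GSK343. Their summed level was 7814 to 12299 FPKM with anti-CXCL10 plus GSK343 and 5405 to 7688 FPKM with control antibody plus GSK343. Macrophage markers (13 of 14) scored 4.85 to 5.12 with anti-CXCL10 plus GSK343 and 5.45 to 5.83 with control antibody plus GSK343. Their summed level was 744 to 1001 FPKM with anti-CXCL10 plus GSK343 and 1264 to 2196 FPKM with control antibody plus GSK343. With the hepatocyte score as a covariate 0 members passed, although their median change was -0.43, against -0.51 without it. With the macrophage score 0 passed, and the median change was -0.08. The macrophage covariate left 0 of all genes past the threshold and the hepatocyte covariate 4.

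T cell markers (16 of 16) scored 2.77 to 3.23 with anti-CXCL10 plus GSK343 and 3.15 to 4.51 with control antibody plus GSK343, with summed levels of 147 to 216 FPKM for anti-CXCL10 plus GSK343 and 209 to 488 FPKM for control antibody plus GSK343. Pericyte and smooth muscle markers (11 of 12) scored 3.40 to 3.56 with anti-CXCL10 plus GSK343 and 3.40 to 4.16 with control antibody plus GSK343, and summed to 180 to 201 FPKM with anti-CXCL10 plus GSK343 and 197 to 328 FPKM with control antibody plus GSK343. Endothelial markers (10 of 13) scored 2.26 to 2.59 with anti-CXCL10 plus GSK343 and 2.50 to 2.87 with control antibody plus GSK343, with overlap. They summed to 72.9 to 81.5 FPKM with anti-CXCL10 plus GSK343 and 84.2 to 93.4 FPKM with control antibody plus GSK343, without overlap. Keratinocyte markers (14 of 16) varied within every group, from 51.3 to 878 FPKM over all libraries. The 5 libraries with Col17a1 above 1 FPKM had keratinocyte scores of 3.96 to 5.51, and all others had 3.43 or less. This match was seen afterwards and was not tested. Adipocyte markers (5 of 12) and cartilage and bone markers (3 of 12) were mostly outside the table. Every gene row of the deposited data, markers or not, reached 1 FPKM in at least 4 libraries. That level in a listed marker is therefore no result, and genes of lower level may be missing from the data. The part of these lists in the member changes was not tested.

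**Figure D5:**
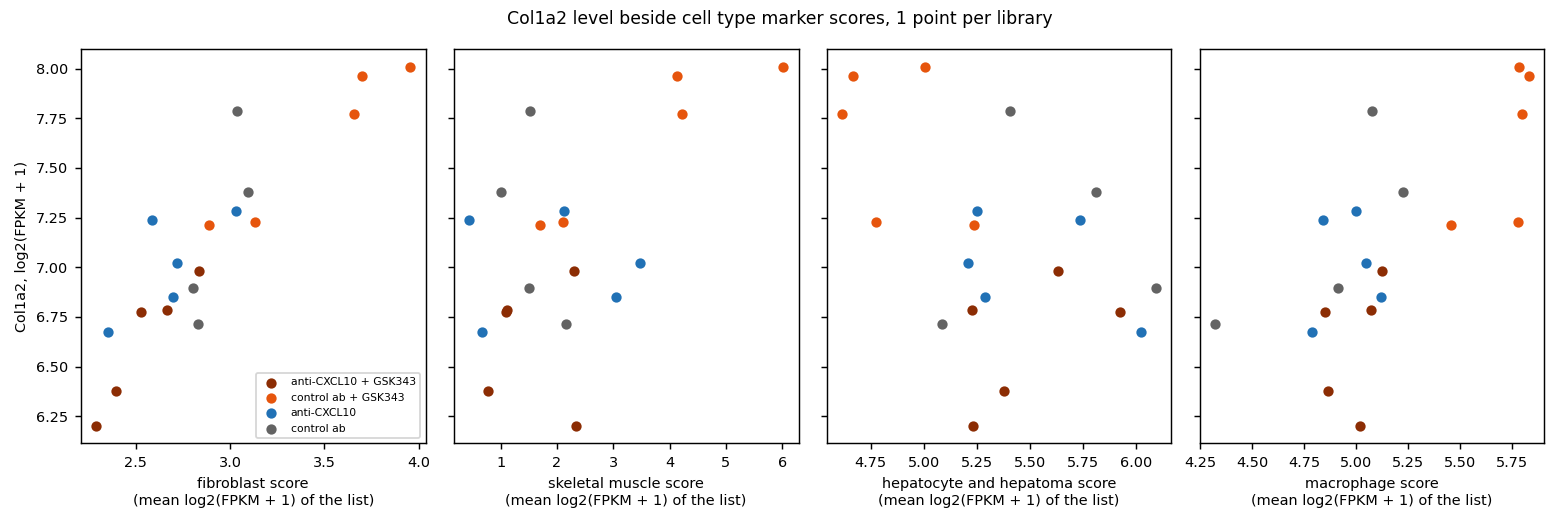
Col1a2 level, as log2(FPKM + 1), beside the score of 4 marker lists (mean log2(FPKM + 1)) in each of 19 libraries, colored by group. The 3 libraries highest in fibroblast and skeletal muscle score are replicates 3, 4 and 5 of control antibody plus GSK343, with Col1a2 at 218, 256 and 249 FPKM, while control antibody replicate 2 reaches 220 FPKM at lower scores.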

How the data were processed

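Poly-A RNA of 20 labelled tumor samples in 4 groups was sequenced, and 19 had a column; 0 further sample columns were left unused. The deposited values are FPKM per gene, computed by the authors. The unit was read from the values: length-weighted column sums varied by 0.79% (coefficient of variation) and plain sums by 4.06%. The submitters' processing notes name StringTie 1.3.3b, HTSeq 0.6.0, HISAT2 2.1.0, Trimmomatic 0.33 and TopHat2 2.1.0, with the builds GRCm38 and mm10. Tool roles and the strand setting are not given in the sources used here. FPKM summed to 533606 to 629679 per library. Sequencing depth is unknown, so no counting error can be given.

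Rows of 8 gene IDs that occurred several times (21 of 14646 rows) were summed, which left 14633 genes. Genes with at least 1 FPKM in at least 5 libraries (14385) were tested as log2(FPKM + 1), a scale that understates changes of low genes, with limma 3.58.1 (R 4.3.3; intensity trend, robust moderation) in 1 model of 4 group means, with 6 contrasts and Benjamini-Hochberg adjustment over all genes. The limma fit was tested on simulated, independent genes for a single contrast, anti-CXCL10 plus GSK343 against control antibody plus GSK343. The permutation, covariate and outlier steps were not tested in this way. Chain ratios were compared by exact permutation and member pairs by 100000 permutations (scipy 1.17.1). Of the gene IDs, 99.3% were in GENCODE M21 (GRCm38), and 34 of 41 members had the same start and end there.

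Members and lists were chosen with earlier results of these data known. Named members were the 12 highest by FPKM, those past the threshold, the 5 with the smallest p per comparison, the 5 most and 3 least variable, and 15 chosen by role; named genes of a pathway list were up to 4 past the threshold, by p, or else the 2 with the smallest p. Other members named (Col9a3, Col5a1, Col5a2, Col6a3, Col7a1, Col22a1, Col27a1 and Fbln1) were chosen after their values were seen. Alternatives were other pseudocounts, filters and scalings, no trend, fits of only the groups compared, a block for the replicate number, leaving out each library or the 3 highest in muscle markers, and muscle and hepatocyte scores as covariates; fibroblast and macrophage scores were added after seeing the data.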

Additional observations from a re-analysis of the deposited data

Results flagged for a closer look

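In groups of 4 or 5 libraries, 8 of 116 group values of the named members had a library apart from the rest (Dixon's test at 95%). For members named without regard to their values, chance would give about 1 in 20, or 5.8. The named members included the 5 most variable, so 5.8 is not the expectation for this set. Fn1 was at 304 FPKM in replicate 1 of control antibody plus GSK343, and the nearest of its group was at 983 FPKM. Col17a1 was at 6.55 FPKM in replicate 2 of control antibody plus GSK343, with the next at 0.231 FPKM, and at 3.91 FPKM in anti-CXCL10 replicate 2, with the next at 0.215 FPKM. Lox was at 17.4 FPKM in anti-CXCL10 replicate 2, with the next at 10.01 FPKM, and Thbs1 at 134 FPKM in the same library, with the next at 97.7 FPKM. Col9a1 was high at 3.90 FPKM in replicate 1 of control antibody plus GSK343, with the next at 1.79 FPKM, and low at 1.73 FPKM in control antibody replicate 2, with the next at 3.27 FPKM. Col10a1 was at 4.15 FPKM in replicate 5 of control antibody plus GSK343, with the next at 1.15 FPKM; it overlaps Nt5dc1 on the opposite strand. No cause of these values was tested, and 0 members passed for the interaction of GSK343 and antibody.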

How the results depend on the processing

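For anti-CXCL10 plus GSK343 against control antibody plus GSK343, 15 members passed in the fit as reported and 10 to 21 when 1 library was left out. With other pseudocounts, filters, scalings, no trend or the compared groups alone, 11 to 17 passed. The fit of the compared groups alone lost Col3a1, Col6a1, Col6a2, Fbln5 and Fbn1, and quantile normalization lost Sparc. The count moved to 1 without the 3 libraries highest in muscle markers and to 0 with the muscle, hepatocyte or macrophage score as a covariate, where the members' median change was -0.35, -0.43 or -0.08, against -0.51 as reported. With the fibroblast score it moved to 2, both higher, with a median of 0.06. Of the named genes that passed as reported, 6 changed sign under the fibroblast score: Loxl1 (0.041), Col3a1 (0.37), Fbln5 (0.022), Col6a1 (0.072), Fbn1 (0.25) and Mmp2 (0.063), with limma adjusted p between 0.342 and 0.965. These scores were related to the groups, and the cause was not tested. Calls over all genes fell in these fits as well. GSK343 under control antibody gave 0 to 4 members with 1 library left out and the interaction 0 to 2. The other 3 comparisons gave 0 under every setting run, as did these 2 under all others. With the replicate number as a block, 16 members passed, 15 of them shared with the fit without it. The 27 pairs of same-numbered libraries of different groups had a median correlation of deviations of 0.06 (lowest -0.20), so the numbers were not taken as pairing. The 12 highest members were the same after rescaling FPKM to an equal sum (12 of 12), and the median pair correlation was 0.39 by Spearman. Low members such as Fbln5 and Col17a1 are the least certain, since depth is unknown.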
